A study of Mus musculus with 6 samples.

Results

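The genes described here are 10 components of bone morphogenetic protein (BMP) signalling, taken by symbol from a table of 46095 gene rows. By role they are the ligands Bmp2, Bmp4, Bmp6, Bmp7, Bmp8a and Bmp8b, the receptors Bmpr1a and Bmpr2, and the secreted antagonists Grem1 (gremlin) and Nog (noggin). All 10 symbols had a row, and 8 of them passed the filter on low counts, while Bmp2 and Bmp7 did not. Expression was measured by RNA sequencing in 3 control and 3 U-IRX3ov libraries of brown adipocytes induced in culture, all from C57BL/6 mice aged 5 weeks. The name U-IRX3ov reads as overexpression of IRX3, a homeobox transcription factor, and the titles of these libraries begin with KI. What drives the IRX3 sequence, and its species, is not stated. The cells of both groups were grown from the stromal vascular fraction, the mix of non-adipocyte cells of digested brown fat. For the first 2 days both groups received IBMX at 0.5 mM, insulin at 5 µg/mL, and dexamethasone, T3 (triiodothyronine) and rosiglitazone at 1 µM each. T3, insulin and rosiglitazone were then kept for 6 days. The labels leave unsaid whether replicate libraries are separate animals or cultures, so every p-value measures the spread between these libraries.

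BMPs are secreted dimers of the TGF-beta superfamily. They bring together a type I receptor such as BMPR1A and a type II receptor such as BMPR2, which leads to phosphorylation of SMAD1, SMAD5 and SMAD9, their pairing with SMAD4 and transcription of target genes such as the Id genes. Noggin and gremlin bind BMP ligands outside the cell and keep them from the receptors. In fat, BMP4 is known for committing precursor cells to the adipocyte lineage, BMP7 for promoting brown adipocyte differentiation, and BMP8B as a factor of mature brown fat that raises its thermogenic response.

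Library totals ran from 20094799 to 26755870 counts. Irx3, the gene named in the genotype, had 131, 142 and 138 counts in the control libraries against 163, 123 and 114 with U-IRX3ov. CPM is a gene's count scaled to the library total with TMM factors. Irx3 was at 4.78, 5.42 and 5.12 CPM in control and 6.27, 6.31 and 5.89 CPM in U-IRX3ov libraries, without overlap. Such a gap, with U-IRX3ov higher, was found for 24.9% of all genes tested. At a log2 fold change of 0.27 ± 0.13 (SE) Irx3 missed the threshold (edgeR adjusted p = 0.112). It is not stated if transcripts of the construct would count under that symbol. Of 12 adipocyte markers 10 rose at an edgeR adjusted p under 0.05, beside 20.2% of all genes tested. The list was set with earlier results of these data known, so this count is a description. Lpl and Dgat2 did not pass (edgeR adjusted p = 0.237 and 0.646). The median log2 fold change was 0.32. The summed level was 33224 to 34332 CPM in control against 43116 to 44912 CPM in U-IRX3ov libraries. Large parts of its rise came from Fabp4 (mean 12693 CPM, then 18682 with U-IRX3ov) and Gpd1 (3656, then 5668). Ucp1, the uncoupling protein of brown fat, averaged 19.7 ± 1.19 CPM in the control and 240 ± 24.1 CPM in the U-IRX3ov libraries (SD, n = 3).

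Bmp8a and Bmp8b are related genes in opposite orientation on chromosome 4, and their sequences are shown first because they bear on how far their counts can be told apart. In the GENCODE annotation of GRCm38, which is the assembly of mm10, Bmp8a lies at chr4:123312645-123343252 on the minus strand and Bmp8b at chr4:123105165-123132099 on the plus strand. Their coding sequences, each of 1200 bases, were identical at 1056 positions, or 88.0%, with no gap. The longest identical run was 182 bases. The first pair below is from coding bases 451 to 600, a stretch of 150 bases with 0 differences, and the second from coding bases 1031 to 1180, the stretch of 150 with the most differences, 35. Capitals mark the bases that differ.
Bmp8a, bases 451 to 600: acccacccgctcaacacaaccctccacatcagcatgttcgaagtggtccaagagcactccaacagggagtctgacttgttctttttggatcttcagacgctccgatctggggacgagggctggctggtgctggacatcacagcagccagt
Bmp8b, bases 451 to 600: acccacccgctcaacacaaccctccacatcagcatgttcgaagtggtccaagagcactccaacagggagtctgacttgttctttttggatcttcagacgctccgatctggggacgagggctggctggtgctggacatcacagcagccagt
Bmp8a, bases 1031 to 1180: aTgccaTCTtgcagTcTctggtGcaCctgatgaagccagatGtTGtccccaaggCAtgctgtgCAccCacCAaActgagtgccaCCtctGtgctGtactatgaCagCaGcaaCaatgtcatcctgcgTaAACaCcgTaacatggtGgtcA
Bmp8b, bases 1031 to 1180: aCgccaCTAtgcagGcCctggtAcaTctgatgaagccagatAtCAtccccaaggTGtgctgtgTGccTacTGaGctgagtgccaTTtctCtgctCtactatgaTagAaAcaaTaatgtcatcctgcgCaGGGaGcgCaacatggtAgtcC
Over the longest annotated transcripts, 210 of 2356 windows of 50 bases in Bmp8a (8.91%) were found unchanged in Bmp8b. With windows of 100 bases this was 109 of 2306 (4.73%). For Bmp8b the shares were 7.26% and 3.84%. Reads from such windows cannot be assigned to 1 gene, and how the authors' counting treated them is not given, so the levels of this pair are uncertain to that extent.

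The upstream sequences of Bmp4 and Bmp6, the 2 ligands with the most counts, and of the receptor Bmpr1a are shown because the ligands were lower in U-IRX3ov libraries and the receptor was not. Since that comparison picked them, nothing is read from a difference in matches between them. Each is the 250 bases before the RefSeq start of the gene in GRCm38, written 5′ to 3′ on the gene's strand, with any match to GGCGCC, a GC-rich element of BMP-responsive SMADs, in capitals. The windows of Bmp6 and Bmpr1a, and that of Bmpr2 used below, lie inside the gene as GENCODE annotates it.
Bmp4, chr14:46390670-46390919, minus strand: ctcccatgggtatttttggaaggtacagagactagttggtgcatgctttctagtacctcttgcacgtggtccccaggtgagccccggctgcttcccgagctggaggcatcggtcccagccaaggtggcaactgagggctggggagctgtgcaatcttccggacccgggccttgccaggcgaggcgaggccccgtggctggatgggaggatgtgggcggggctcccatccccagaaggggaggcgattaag
Bmp6, chr13:38345466-38345715, plus strand: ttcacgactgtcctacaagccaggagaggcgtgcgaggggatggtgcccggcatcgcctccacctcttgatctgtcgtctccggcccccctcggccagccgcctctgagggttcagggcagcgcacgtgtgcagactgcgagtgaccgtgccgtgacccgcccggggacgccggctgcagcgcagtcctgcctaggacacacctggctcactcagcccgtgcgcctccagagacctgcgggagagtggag
Bmpr1a, chr14:34502547-34502796, minus strand: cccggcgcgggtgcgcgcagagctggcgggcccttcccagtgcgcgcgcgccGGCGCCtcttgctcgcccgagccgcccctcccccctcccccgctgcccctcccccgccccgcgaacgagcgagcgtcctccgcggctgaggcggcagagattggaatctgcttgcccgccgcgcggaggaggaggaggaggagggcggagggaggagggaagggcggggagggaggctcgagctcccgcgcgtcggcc
RefSeq upstream sequences matched 7 of the 10 symbols, all but Bmp2, Bmp7 and Nog. GGCGCC, which reads the same on both strands, was found before Bmpr1a, Bmpr2 and Grem1, against 9.59% of all 32851 upstream sequences of this length. It was also found in 10 of 51 upstream sequences of 44 other BMP pathway genes. ACATGT, a core motif of Iroquois homeodomain proteins that is also the same on both strands, was found in 0 of the 7 and in 4.58% of all. GC content was 63.2% before Bmp4, 68.8% before Bmp6 and 78.8% before Bmpr1a. A match is a description of the letters in this window and no evidence of binding.

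The 10 members were chosen by pathway with their measured fold changes between U-IRX3ov and control in view, so their differences in that comparison are given as a description, with no p-value. Bmp4, Bmp6 and Bmp8a were lower in all 3 U-IRX3ov libraries than in any control library, while the receptors and gremlin had nearly equal means. Of the 8 tested members, 3 passed an edgeR adjusted p of 0.05 in either direction, beside 41.3% of all 14757 genes tested, and all 3 were lower, beside 21.1% of all genes. For these same 3 the groups did not overlap, as was the case, lower in U-IRX3ov, for 25.9% of all genes tested. Members higher at that threshold numbered 0, beside 20.2% of all genes. Members higher without overlap also numbered 0, beside 24.9% of all genes. At an unadjusted p under 0.05 the number higher was also 0 with edgeR, DESeq2 and limma-voom. The share of all genes at that threshold was not worked out. All 3 tools used the same libraries, so their common result adds no support. Nothing is read from these counts, since the choice of members used the comparison.

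**Figure D1:**
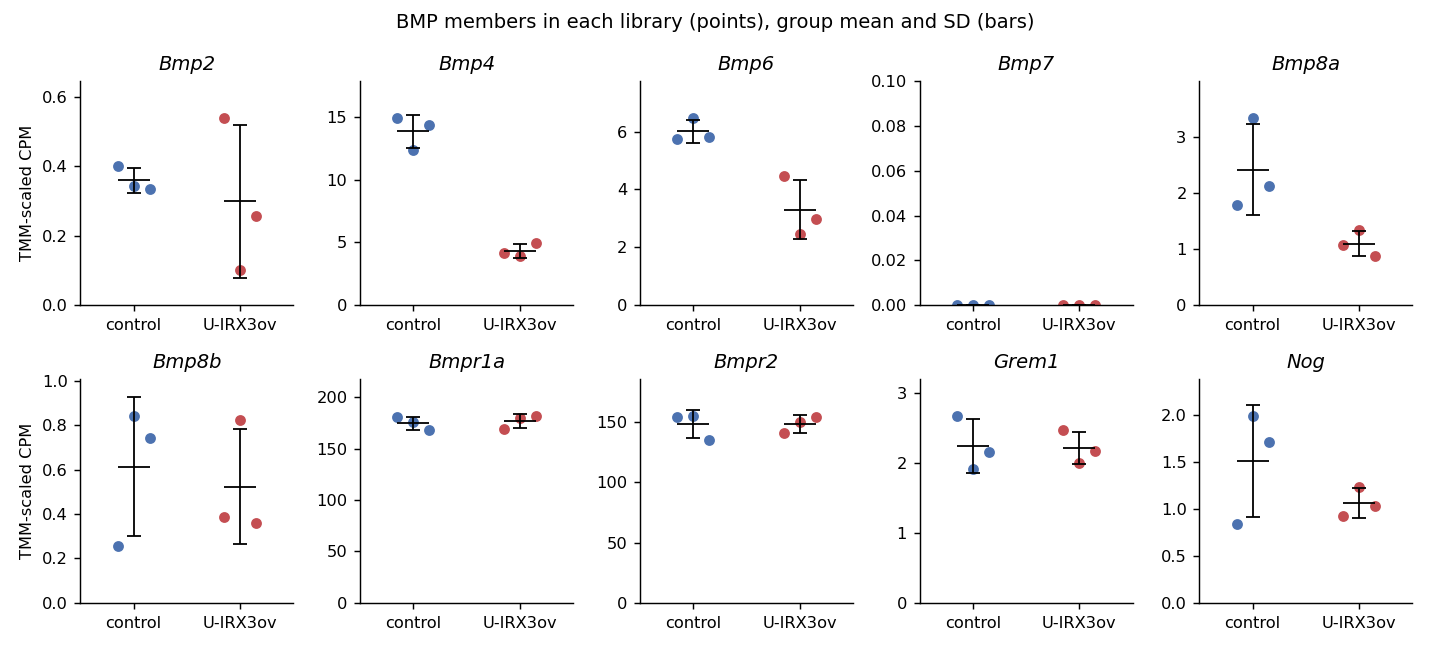
TMM-scaled CPM of each of the 10 members (vertical axes, each from 0) in the 3 control and 3 U-IRX3ov libraries (points), with the group mean and SD (bars). For Bmp4, Bmp6 and Bmp8a every U-IRX3ov point lies below every control point, and for the other members the groups overlap or hold no counts.

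Among the ligands, Bmp4 had the most counts. It had 14.9, 12.3 and 14.3 CPM in control libraries 1, 2 and 3 and 4.11, 3.90 and 4.96 CPM in U-IRX3ov libraries 1, 2 and 3. The lowest control library, library 2, was thus above the highest U-IRX3ov library. The coefficient of variation was 9.60% in control, where counting alone gives 5.18%, and 12.9% in U-IRX3ov, where counting gives 10.4%. The means were 13.8 ± 1.33 CPM and 4.32 ± 0.559 CPM (SD, n = 3), a level 3.21-fold lower in U-IRX3ov (log2 fold change -1.68 ± 0.12 SE). Bmp4 lies at chr14:46383520-46390669 on the minus strand and shares 89 exonic bases with Gm15217 on the other strand, which had no count in any library.

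Bmp6, a ligand of the BMP7 branch that is also known for its role in iron control, was next. Its level was 5.73, 6.46 and 5.83 CPM in the control libraries and 4.46, 2.46 and 2.996 CPM in the U-IRX3ov libraries. The U-IRX3ov libraries varied more than the control ones, with library 1 the highest of its group. The coefficient of variation was 31.3% in U-IRX3ov, where counting alone gives 11.6%, and 6.55% in control, where counting gives 7.88%. The log2 fold change was -0.83 ± 0.17 (SE), a level 1.78-fold lower, and it was -1.13 without U-IRX3ov library 1. Bmp6 lies at chr13:38345107-38500302 on the plus strand and shares 224 exonic bases with Txndc5 on the other strand. Txndc5, a chaperone gene, went from 257 ± 6.99 CPM to 186 ± 2.77 CPM in U-IRX3ov libraries, a fall (log2 fold change -0.47 ± 0.04, edgeR adjusted p = 3.32e-11). Strand use in the counting is not given, and the part of Txndc5 reads in the Bmp6 counts was not tested.

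Bmp8a had 49, 87 and 57 counts in the control and 28, 26 and 17 in the U-IRX3ov libraries. As CPM, these were 1.79, 3.32 and 2.12 against 1.08, 1.33 and 0.878, so the groups did not overlap, and control library 2 was well above the other two. The log2 fold change was -1.13 ± 0.28 (SE), a level 2.19-fold lower in U-IRX3ov, and it was -0.83 without control library 2. The related gene Bmp8b showed no such separation. Its counts were 7, 22 and 20 in control and 10, 16 and 7 in U-IRX3ov libraries, with the lowest level of the 6 libraries, 0.256 CPM, in control library 1. Its log2 fold change was -0.25 ± 0.47 (SE). Whether the changes of Bmp8a and Bmp8b differ was not tested. On the other strand Bmp8b shares 339 exonic bases with Gm17244, for which no value was used here, and 133 with Ppie, which averaged 14.2 ± 0.430 CPM in the control and 15.1 ± 1.54 CPM in the U-IRX3ov libraries.

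Bmp2 and Bmp7 were too low to test. Bmp2, a ligand close in sequence to BMP4, had 11, 9 and 9 counts in control and 14, 2 and 5 in U-IRX3ov libraries, and the groups overlapped. U-IRX3ov library 1 held the most Bmp2 of the 6 libraries. It also held the most Bmp6 of its group. Bmp7, the ligand best known for brown adipocyte differentiation, had 0 counts in all 6 libraries. A count of 0 allows up to 3 counts over a group, or 0.0373 CPM in control against 0.0463 CPM in U-IRX3ov libraries, for counting error only. Bmp2 lies at chr2:133552159-133562885 on the plus strand and Bmp7 at chr2:172868012-172940321 on the minus strand.

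The type I receptor gene Bmpr1a had 181, 176 and 168 CPM in control against 169, 180 and 182 CPM in U-IRX3ov libraries. The groups overlapped, and their means of 175 ± 6.21 CPM and 177 ± 6.71 CPM (SD, n = 3) differed by less than the SD of either group. The log2 fold change was 0.02 ± 0.04 (SE). The type II receptor gene Bmpr2 had 155, 155 and 135 CPM in control against 141, 150 and 155 CPM in U-IRX3ov libraries, with means of 148 ± 11.6 CPM and 149 ± 7.12 CPM and a log2 fold change of 0.00 ± 0.05 (SE). With 2930 to 4945 counts of a receptor per library, counting alone gives a coefficient of variation of 1.46% to 1.77%. The ratio of Bmpr1a to Bmpr2 per kilobase was 3.35 ± 0.167 in control and 3.38 ± 0.0428 in U-IRX3ov libraries. These SDs cover the spread between libraries only, and the ratio itself depends on the gene length used. Bmpr1a lies at chr14:34410734-34503341 on the minus strand, with 290 exonic bases shared with the antisense gene Gm17110, and Bmpr2 at chr1:59763400-59879014 on the plus strand.

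Of the antagonists, Grem1 had 2.67, 1.91 and 2.15 CPM in control against 2.46, 2.002 and 2.17 CPM in U-IRX3ov libraries. Its groups overlapped fully, and its log2 fold change was -0.01 ± 0.22 (SE). Nog had 0.840, 1.99 and 1.71 CPM in control against 0.923, 1.23 and 1.03 CPM in U-IRX3ov libraries. Control library 1 was the lowest of all 6 for Nog, and the other 2 control libraries lay above all U-IRX3ov libraries. Its log2 fold change was -0.51 ± 0.33 (SE), and -0.80 without control library 1. That library was also the lowest of its group for Bmp8a and Bmp8b and the highest for Bmp4. Grem1 lies at chr2:113746164-113758646 and Nog at chr11:89300638-89302332, both on the minus strand.

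Per kilobase of exon, which allows levels of different genes to be compared, the members spanned more than 2 orders of magnitude. Bmpr1a had the highest level in control, 27.5 ± 0.977 CPM per kilobase (SD, n = 3), followed by Bmpr2 at 8.24 ± 0.642, Bmp4 at 6.16 ± 0.591 and Bmp6 at 1.54 ± 0.101. Below them came Bmp8a at 1.00 ± 0.336, Nog at 0.891 ± 0.353 and Grem1 at 0.541 ± 0.0930 CPM per kilobase. Bmp8b at 0.158 ± 0.0807 and Bmp2 at 0.101 ± 0.0103 CPM per kilobase were the lowest with any count. In control the mean ± SD ranges of Bmp8a and Nog, of Nog and Grem1, and of Bmp8b and Bmp2 overlapped, so the order within each of these pairs is not set.

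In U-IRX3ov libraries the receptors kept their places, with Bmpr1a at 27.9 ± 1.06 and Bmpr2 at 8.26 ± 0.396 CPM per kilobase. Bmp4 was at 1.92 ± 0.249 CPM per kilobase, still the highest ligand. Bmp6 at 0.848 ± 0.265, Nog at 0.627 ± 0.0923, Grem1 at 0.533 ± 0.0561 and Bmp8a at 0.456 ± 0.0951 CPM per kilobase each overlapped the next within 1 SD. Bmp8a thus stood above both antagonists by its mean in control and below both in U-IRX3ov libraries. Its mean ± SD range overlapped that of Nog in control and those of both antagonists in U-IRX3ov libraries, so this order is not set.

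**Figure D2:**
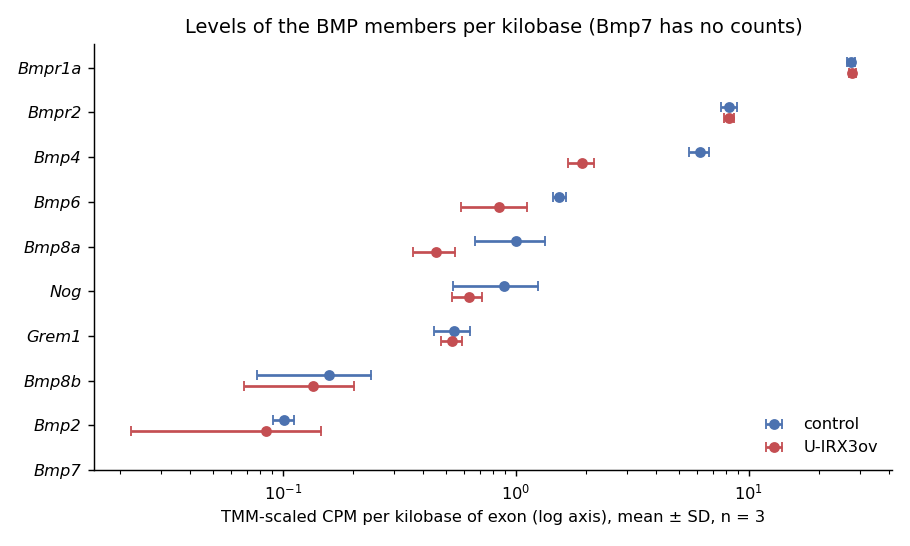
Mean level ± SD (n = 3) of each member in TMM-scaled CPM per kilobase of exon (horizontal log axis) in control and U-IRX3ov libraries. The receptors coincide between groups at 27.5 and 27.9 for Bmpr1a and 8.24 and 8.26 for Bmpr2, while Bmp4 lies at 6.16 in control and 1.92 in U-IRX3ov libraries, and Bmp7 has no counts.

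Summed over the 6 ligands, the level was 9.004, 8.84 and 9.03 CPM per kilobase in the control libraries and 3.67, 3.16 and 3.50 in the U-IRX3ov libraries. The control libraries were closer to each other in this sum than in Bmp4 or Bmp8a alone. The sum of Grem1 and Nog was 1.43 ± 0.260 CPM per kilobase in control and 1.16 ± 0.0429 in U-IRX3ov libraries. The ratio of summed ligand level to the sum of Grem1 and Nog was 7.91, 5.41 and 5.92 in control and 3.23, 2.61 and 3.09 in U-IRX3ov libraries, without overlap. It leaves out all other antagonists, some at far higher levels, so it is no balance of ligands against antagonists. Fstl1 was at 189 CPM per kilobase in control and 109 in U-IRX3ov libraries, and Fst at 41.2 and 25.3. Bmp4 made up 68.7% ± 5.89 of the ligand level in control and 55.9% ± 6.61 in U-IRX3ov libraries, and these shares overlapped, with 62.1% in control library 2 and 62.9% in U-IRX3ov library 3. Bmp6 made up 17.2% ± 1.33 in control and 24.3% ± 5.97 in U-IRX3ov libraries, where its lowest library, at 19.98%, was above the highest control library, at 18.7%. These shares concern mRNA of the 6 ligands only, and like the fold changes they describe the comparison that chose the members.

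**Figure D3:**
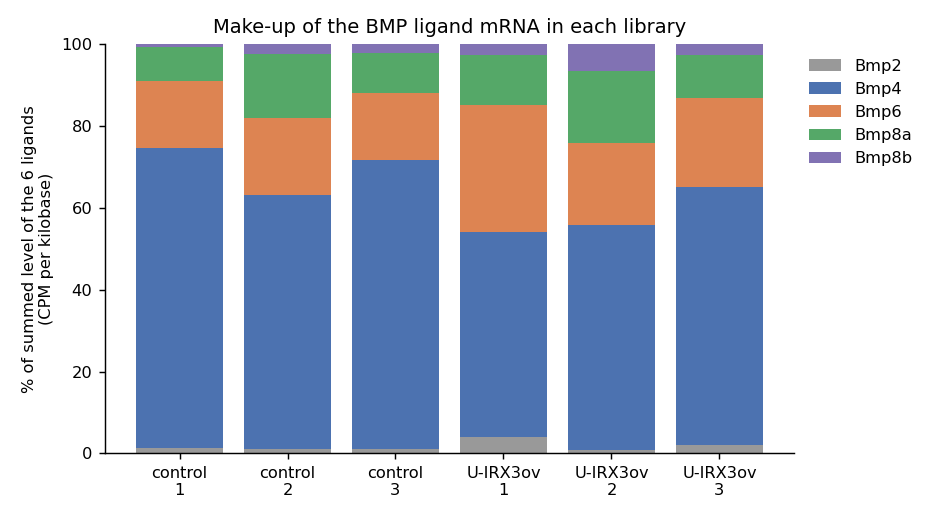
Share of each ligand in the summed level of the 6 ligands (percent of CPM per kilobase, vertical axis) in each of the 6 libraries; Bmp7 has no counts and is not drawn. Bmp4 takes the largest share in every library, from 62.1% to 73.4% in control and from 49.8% to 62.9% in U-IRX3ov libraries.

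The rest of the pathway was read from a list of 64 other BMP pathway genes that are not members. Of these, 51 were tested, and 31 fell and 1 rose at an edgeR adjusted p under 0.05, beside 21.1% lower and 20.2% higher of all genes tested. The median log2 fold change was -0.31, beside -0.0047 over all 14757 genes tested. The groups did not overlap for 34 of the 51 with U-IRX3ov lower and for 3 with it higher, beside 25.9% and 24.9% of all genes tested. By sublist, 12 of 15 tested extracellular regulators, 7 of 10 receptors and 6 of 8 targets fell. So did 4 of 13 SMAD and cytoplasmic genes and 2 of 5 ligands. The 21.1% of all genes that were lower is the share beside each of these counts, and a difference between sublists was not tested. The list of 64 too was set with earlier results of these data known, so its counts and median are a description. So are the p-values given below for its genes, of which 3 per sublist were named for the smallest p.

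Of 10 other ligands 5 were tested. Gdf10, also called BMP3B, fell from 2.77 ± 0.134 to 0.745 ± 0.243 CPM (SD, n = 3), with 80, 70 and 73 counts in control and 26, 14 and 10 in U-IRX3ov libraries. Its log2 fold change was -1.85 ± 0.27 (SE; adjusted p = 2.22e-06 with edgeR), the lowest among the 51 pathway genes. Gdf6 fell as well (-0.51 ± 0.14, edgeR adjusted p = 0.00433). Bmp3, which unlike most BMPs opposes BMP signalling, was the 1 gene of the list that rose, from 5.51, 6.42 and 5.83 CPM in control to 8.15, 9.24 and 8.99 CPM in U-IRX3ov libraries (0.57 ± 0.12, edgeR adjusted p = 4.26e-04). Gdf5 had a log2 fold change of -0.08 ± 0.44 and did not pass (edgeR adjusted p = 0.907). Bmp10, Gdf2 and Gdf7 had no count in any library.

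All 10 other receptors and co-receptors were tested and 7 fell, with a median log2 fold change of -0.31. Eng (endoglin), a co-receptor of BMP9 and TGF-beta in endothelial and stromal cells, fell from 73.1 ± 1.24 to 32.9 ± 3.40 CPM (log2 fold change -1.15 ± 0.06 SE; adjusted p = 1.70e-14 with edgeR). The type I receptor genes Acvrl1 (-0.56 ± 0.06), Acvr1 (-0.38 ± 0.06) and Bmpr1b (-0.68 ± 0.13) and the type II receptor gene Acvr2a (-0.24 ± 0.05) fell too. Bmpr1b was named after its values were seen, as the type I receptor next to Bmpr1a, and at 7.52 ± 0.484 CPM in control it had far fewer counts. Acvr2b (0.18 ± 0.20) and the pseudoreceptor gene Bambi (0.18 ± 0.18) did not pass. Bmpr1a and Bmpr2 had values nearer 0 than these 7, though a difference between receptors was not tested.

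Among 15 tested extracellular antagonists and modulators 12 fell, with a median log2 fold change of -0.49. Fstl1, a follistatin-like glycoprotein that binds BMP4, fell from 927 ± 3.92 to 534 ± 20.2 CPM (log2 fold change -0.80 ± 0.04 SE, edgeR adjusted p = 2.87e-16). Crim1, a membrane protein that binds BMPs, fell by 0.84 on the log2 scale, and Fst (follistatin), which binds activins and some BMPs, fell by 0.70, from 189 ± 8.29 to 116 ± 1.85 CPM. Chrdl1, a chordin-like BMP binder, fell by 0.26 on the log2 scale (edgeR adjusted p = 0.00776), a call lost without control library 1 (adjusted p = 0.0612). Bmp1, a metalloprotease that cleaves chordin and procollagens and is not a BMP ligand, fell from 258 ± 9.83 to 149 ± 11.3 CPM (-0.79 ± 0.05).

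Of the 13 SMADs and cytoplasmic regulators 4 fell and 9 did not pass, with a median log2 fold change of -0.03. Smad1 (-0.31 ± 0.05) and the inhibitory Smad6 (-0.34 ± 0.08) and Smad7 (-0.32 ± 0.07) fell. Smad5 (0.02 ± 0.05), the shared partner Smad4 (-0.03 ± 0.04) and Smad9 (-0.24 ± 0.24) did not pass, and neither did Zfp423, a SMAD cofactor of preadipocytes (-0.16 ± 0.07, edgeR adjusted p = 0.0571, but 0.0375 with upper-quartile scaling). The fourth gene that fell, Fkbp1a (-0.16 ± 0.04), which binds type I receptors, was named after its value was seen.

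Of 8 tested BMP target genes 6 fell, with a median log2 fold change of -0.43. Id2 went from 17.1 ± 0.359 to 12.53 ± 0.8997 CPM (-0.45 ± 0.09, edgeR adjusted p = 1.34e-04) and Id4 from 14.997 ± 0.898 to 10.7 ± 0.522 CPM (-0.48 ± 0.09, edgeR adjusted p = 1.48e-04). Id1 fell less, from 20.5 ± 0.735 to 16.7 ± 0.635 CPM (-0.29 ± 0.08, edgeR adjusted p = 0.00304). Atoh8, a helix-loop-helix factor induced by BMPs, fell by 0.42 on the log2 scale. Id3 was the most abundant of the list in CPM, at 84.2 ± 4.67 CPM in control against 86.5 ± 4.40 CPM in U-IRX3ov libraries, and did not pass (0.04 ± 0.05, edgeR adjusted p = 0.575).

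**Figure D4:**
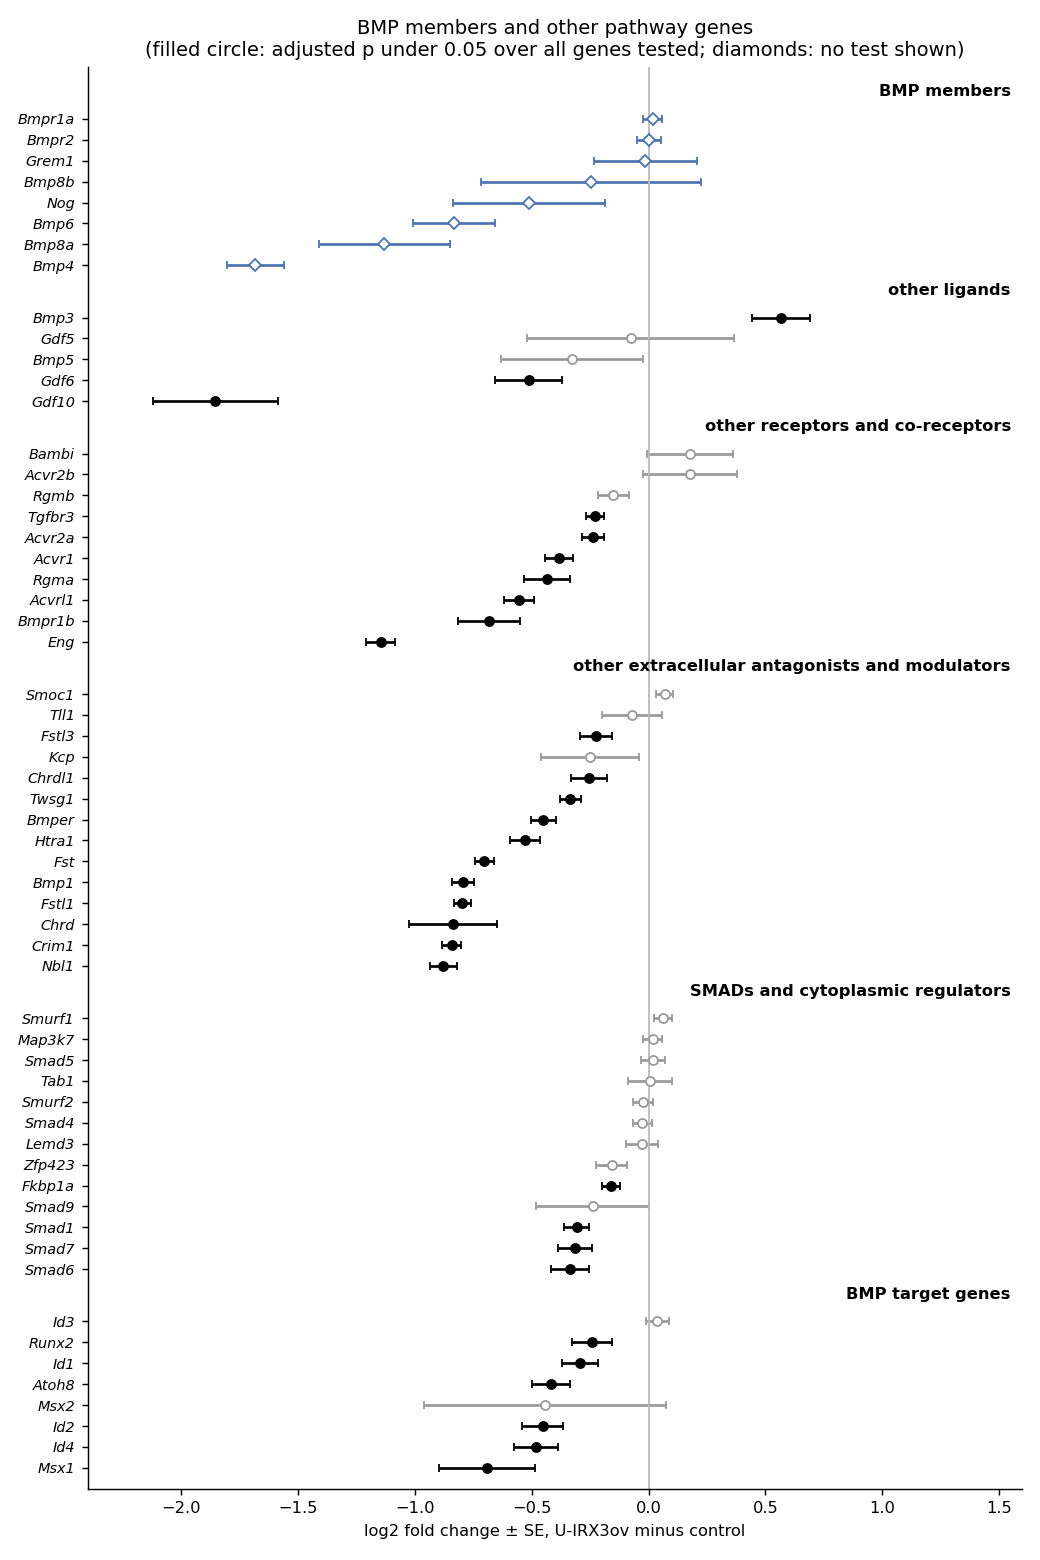
Log2 fold change ± SE of the 8 tested members (diamonds) and the other tested pathway genes named or counted here (circles, 1 gene not drawn), U-IRX3ov minus control, with filled circles for an adjusted p under 0.05 over all genes tested; the diamonds carry no test. Bmp4 at -1.68 and Gdf10 at -1.85 are the lowest, Bmp3 at 0.57 is the 1 filled circle above 0, and the receptors Bmpr1a and Bmpr2 lie at 0.02 and 0.00.

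Markers of other cell types of the stromal vascular fraction moved in the same libraries. The marker lists, like that of the pathway, were set with earlier results of these data known, so their counts are a description. Falls and rises counted here are at an edgeR adjusted p under 0.05, beside 21.1% lower and 20.2% higher of all genes tested. Of 13 tested preadipocyte and fibroblast markers 12 fell, with a summed level over the whole list of 7095 to 7247 CPM in control against 4257 to 4608 CPM in U-IRX3ov libraries (median log2 fold change -0.73). Col1a1 at 3473 CPM and Col3a1 at 2008 CPM in control were large parts of that sum. All 13 tested leukocyte markers fell, from a sum of 501 to 614 CPM to one of 163 to 240 CPM (median -1.33). Of 9 tested pericyte and smooth muscle markers 6 fell and 2 rose, with sums of 3394 to 3525 and 2097 to 2332 CPM. Of 10 tested endothelial markers 6 rose, with sums of 43.9 to 48.7 and 67.1 to 72.4 CPM, and Cldn5 was at 0 in all libraries. Of the 2 tested mesothelial markers 1 rose, with sums of 17.1 to 19.5 and 22.7 to 27.8 CPM. The part of these cell types in the levels of Bmp4, Bmp6, Bmp8a and the other pathway genes was not tested, and in bulk RNA fewer cells of a type and less RNA per cell cannot be told apart.

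The genes whose profile over the 6 libraries was most like that of a member were sought for the 3 members with the most CPM, among 8631 named genes with at least 10 CPM. For Bmpr1a they were Yipf4 (Pearson r = 0.979 on the log2 scale) and Ahcyl1 (0.973), for Bmpr2 Zfx (0.987) and Pbrm1 (0.983), and for Bmp4 Pofut1 (0.999) and Csgalnact1 (0.999). Each was picked as closest among the 8631 over only 6 points, so a high r can come from the choice alone. The 6 points are libraries of 2 groups, so for Bmp4 the likeness includes the difference between groups. The receptors differed little between libraries. Likeness within groups was not tested.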

How the data were processed

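RNA was sequenced in 3 control and 3 U-IRX3ov libraries. The file the authors deposited holds raw, unnormalized read counts by symbol. Reads were aligned with HISAT2 2.0.4 to mm10, per the submitters' processing notes. The counter, annotation, strand setting and treatment of reads with several matches were not given in the sources used here.

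Filtering with filterByExpr left 14757 of 46095 rows, with 99.9% or more of any library's counts, and TMM set the scaling. Groups came from the titles. U-IRX3ov was compared with control by edgeR 4.0.16 (R 4.3.3), with a robust quasi-likelihood F test, no term but group, and p-values adjusted by Benjamini-Hochberg across the genes tested (threshold 0.05). All gene p-values are from it unless another tool is named. The SE is the log2 fold change divided by the square root of F. An exact permutation test of 3 against 3 cannot go below p = 0.1. Levels per kilobase used the union of GENCODE exons (GRCm38). Profile likeness used log2 of CPM plus 0.5.

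The members and lists were chosen with earlier results of these data known. Named were all members, 21 set pathway genes, the 3 genes with the smallest p in each pathway sublist, and the genes most like 3 members; 1 set pathway gene is counted but not reported here by name. Scripts were tested on simulated data. Alternatives were other scalings, filters, DESeq2 1.42.0, limma-voom (limma 3.58.1), a replicate block, leaving out each library and another gene length.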

Additional observations from a re-analysis of the deposited data

How the results depend on the processing

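As a description of members chosen on this comparison, the log2 fold changes of Bmp4, Bmp6 and Bmp8a over the 13 alternative fits ran over -1.78 to -1.62, -1.13 to -0.66 and -1.31 to -0.83. The number of members lower was 3, except for 4 without control replicate 1, from which nothing is read. Other pathway genes lower numbered 29 to 33 and higher 1 in every fit. All genes lower numbered 2559 (DESeq2) to 3324 (upper-quartile scaling), against 3120. The sign of Bmp8b, Bmpr1a, Bmpr2 and Grem1, which were not called in any fit, changed between fits. With the longest transcript as gene length, levels in CPM per kilobase moved beyond 1 SD for Bmp6 in control (1.67), Bmpr1a (29.3 in control, 29.7 in U-IRX3ov) and Bmpr2 (11.5 in both).

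Titles carry the numbers 1 to 3 in both groups without saying that a number pairs them. Deviations from the group means of same-numbered libraries correlated at -0.11, 0.17 and -0.03 over genes, and not every library correlated best with its own number. With the replicate number as a block, 3159 genes were lower and 3014 higher, with 3 members lower and 0 higher, and 31 other pathway genes lower and 1 higher.

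Depth limits Bmp2, Bmp8a, Bmp8b, Grem1 and Nog, which had at most 87 counts in any library. The counting alone gives a coefficient of variation of 24.7% for Bmp8b in control and 20.6% for Bmp8a in U-IRX3ov libraries.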
